A study of Mus musculus with 6 samples.

Results

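The regions described here are accessible chromatin peaks at gene starts that carry no CpG island annotation in spleen leukemia cells. They were chosen from the table of merged peaks as those whose annotation begins with promoter-TSS and whose detailed annotation does not begin with CpG, and 20293 of the 175929 peaks (11.53%) met this rule. The clause on CpG did not act as its name says. It removed 0 of the promoter peaks, because all 3744 peaks with a CpG name in the detailed column were annotated as something other than a promoter. The sequence of each peak was therefore read, and the members were divided by the CpG content around them. A promoter peak was called CpG-poor where no 500-bp window centered within 250 bp of it reached a CpG observed/expected ratio of 0.48, and CpG-rich where a window passed a ratio of 0.75 with over 55% GC. By this measure 4419 peaks (21.78%) were CpG-poor, 5158 (25.42%) were intermediate, 10713 (52.79%) were CpG-rich, and 3 lay on scaffolds with no sequence at hand. The 4419 CpG-poor peaks, nearest to 3495 genes, are the promoters that the name "outside CpG islands" fits, and most of what follows is about them.

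The study asked how chromatin accessibility changes when 1 allele of Usp18 is lost in acute myeloid leukemia. Fetal liver cells of Usp18+/f UBCER-Cre mice, in which the ubiquitin C promoter drives a tamoxifen-inducible Cre in all tissues, were transduced with a retrovirus carrying the AML1-ETO 9a (AE9a) fusion and GFP, and transplanted into irradiated C57BL/6 recipients. Sick recipients were injected with oil or tamoxifen, and GFP+ Lin- c-Kit+ cells were sorted from the spleen 3 days after the first injection for ATAC-seq, in which a transposase cuts open DNA and leaves sequencing tags there. The 3 oil libraries (Usp18+/f, replicates 1, 2 and 4) and the 3 tamoxifen libraries (Usp18+/D in the labels, replicates 1, 3 and 4) all carried the floxed allele and the Cre. The controls received no tamoxifen, so the drug itself and the loss of the allele cannot be told apart. The study's methods mention several mice per group for the sorted set paired with RNA-seq, but the labels do not tie a library to a mouse, and p-values therefore measure the spread between libraries, which may be technical in part.

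A CpG island is a stretch of DNA that has kept its CpG pairs, and such stretches form the starts of most housekeeping and developmental genes, where chromatin is open in nearly every cell type. Promoters without an island depend more on factors bound in a given cell type, often carry a TATA box, and tend to belong to genes of specialized cells, such as granule proteins, globins and receptors of blood cells. In the myeloid lineage, Runx1, PU.1 and GATA factors are known to bind such promoters and the enhancers near them, and AE9a is a truncated form of the RUNX1 fusion that binds the same DNA letters as Runx1.

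5 peaks show what separates the classes, each read from the plus strand of mm10 with CpG pairs in capitals, up to 240 bases of the peak and no further than 30 bases into the transcript. The CpG-poor peaks upstream of Cyp11a1 (chr9:58014408-58014647) and at its start (chr9:58014792-58014981) had the smallest adjusted p of all members, the CpG-poor peak at Snord52 (chr17:34951251-34951490) had the smallest among CpG-poor peaks with fewer tags, Lrrc58 (chr16:37868282-37868429) is the CpG-rich peak with the smallest, and Hjurp (chr1:88277550-88277746) had the highest level of any member with a sequence.
Cyp11a1 upstream peak: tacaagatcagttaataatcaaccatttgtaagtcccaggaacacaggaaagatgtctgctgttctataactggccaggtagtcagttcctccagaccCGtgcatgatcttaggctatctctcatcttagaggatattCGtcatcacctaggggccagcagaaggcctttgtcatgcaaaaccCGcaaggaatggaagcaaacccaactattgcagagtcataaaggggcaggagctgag
Cyp11a1 start peak: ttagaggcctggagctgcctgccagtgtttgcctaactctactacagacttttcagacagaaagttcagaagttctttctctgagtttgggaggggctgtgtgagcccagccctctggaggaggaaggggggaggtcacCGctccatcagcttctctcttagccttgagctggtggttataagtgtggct
Snord52 peak: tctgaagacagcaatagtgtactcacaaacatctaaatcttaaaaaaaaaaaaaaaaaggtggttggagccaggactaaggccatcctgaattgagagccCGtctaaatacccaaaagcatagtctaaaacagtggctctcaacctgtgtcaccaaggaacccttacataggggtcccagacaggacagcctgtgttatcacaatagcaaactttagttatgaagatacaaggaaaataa
Lrrc58 peak: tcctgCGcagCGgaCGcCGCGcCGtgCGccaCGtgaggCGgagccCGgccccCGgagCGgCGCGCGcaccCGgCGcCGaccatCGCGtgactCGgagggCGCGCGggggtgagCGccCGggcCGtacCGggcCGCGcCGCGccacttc
Hjurp peak: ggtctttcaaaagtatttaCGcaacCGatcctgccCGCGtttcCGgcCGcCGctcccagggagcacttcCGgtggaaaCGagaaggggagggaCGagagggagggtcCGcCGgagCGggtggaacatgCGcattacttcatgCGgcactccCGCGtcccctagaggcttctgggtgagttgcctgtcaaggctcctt
The stretches at Cyp11a1 held 3 and 1 CpG pairs and the one at Snord52 held 1, against 32 at Lrrc58 and 17 at Hjurp.

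CpG-poor promoters differed from the other promoters in more than sequence, and they looked more like distal peaks in their levels. Their median peak had 50.9% GC and a CpG observed/expected ratio of 0.209, against 67.0% and 0.878 at CpG-rich promoters. The median level in the oil group, given as normalized tags per 1000 bp, was 176 at CpG-poor peaks, with quartiles of 113 and 426, beside 563 at intermediate peaks, 2008 at CpG-rich peaks and 148 at distal peaks over 3000 bp from a start site. These levels are descriptions, and the CpG-poor distribution had a long upper tail, with an upper decile of 925. CpG-poor peaks also sat further from the start site, with a median position of -472 bp, negative being upstream, against -44 bp at CpG-rich peaks, and 26.9% of them had their center within 100 bp of it against 65.4%. Their nearest gene was a non-coding RNA gene in 12.8% of cases, against 4.22% at CpG-rich peaks and 10.7% over all peaks. They were found in both groups less often than CpG-rich peaks, with 70.2% against 94.0% present in the peak lists of oil and tamoxifen alike. The share over all peaks was 71.4%, close to that of the CpG-poor class.

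**Figure D1:**
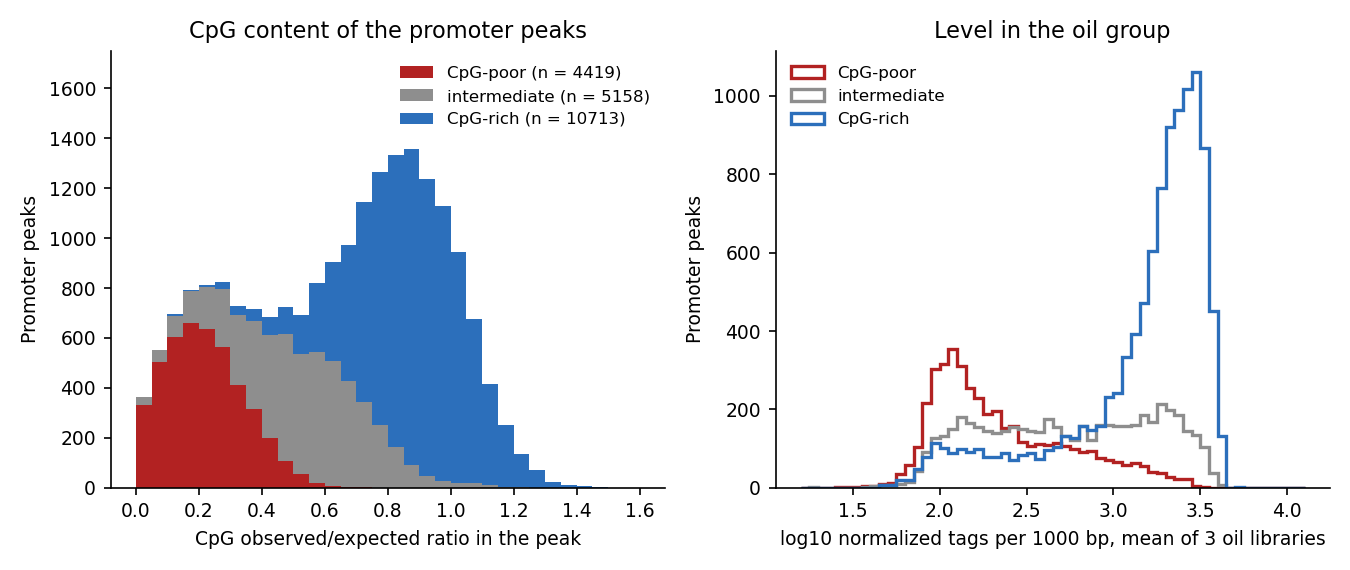
Left, number of promoter peaks (y axis) by CpG observed/expected ratio of the peak sequence (x axis), stacked by class. Right, number of promoter peaks of each class (y axis) by log10 of the mean normalized tags per 1000 bp in the 3 oil libraries (x axis). CpG-poor peaks have a median of 176 tags per 1000 bp and CpG-rich peaks one of 2008, and the CpG-poor peaks trail off toward the level of the CpG-rich ones.

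The upper tail of the CpG-poor class held promoters that were as open as those of CpG islands, and their levels were close between the groups. The names in this paragraph were chosen after their values were seen. The highest CpG-poor level in oil was at Nqo1, a quinone reductase, with 973, 915 and 891 normalized tags in oil and 945, 935 and 878 after tamoxifen. Nckap1l, which encodes an actin regulator of blood cells, had 857, 835 and 810 tags in oil and 872, 916 and 821 after tamoxifen. Nfe2, an erythroid and megakaryocyte transcription factor, had 702, 641 and 606 tags in oil and 651, 738 and 634 after tamoxifen. In all of these the groups overlapped, and the same holds for Trex1, a DNA exonuclease, and Rassf5, a Ras effector. The 8 highest CpG-poor peaks, which also include Mterf2, Gm17597 and Samsn1, had oil levels of 2820 to 3320 tags per 1000 bp and log2 changes of -0.07 to 0.09. Spi1, which encodes PU.1, had a CpG-poor start with 334, 285 and 312 tags in oil and 305, 312 and 288 after tamoxifen, and the groups overlapped there too.

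Short sequence motifs were counted in 200-bp windows centered on the peaks, on both strands. The Runx letters TGTGGT occurred in 17.8% of CpG-poor windows, 5.69% of CpG-rich windows, 9.53% of all promoter windows and 18.7% of all peak windows. The PU.1 letters GAGGAA, which other ETS factors also bind, occurred in 24.02% of CpG-poor windows, 16.2% of CpG-rich windows and 18.5% of all promoter windows. The GATA letters AGATAA occurred in 13.3% of CpG-poor windows, 2.17% of CpG-rich windows and 6.004% of all promoter windows. Over all peak windows the PU.1 letters occurred in 21.6% and the GATA letters in 15.1%, so that CpG-poor promoters stood above all peaks for PU.1 and below them for the Runx and GATA letters. The GC box GGGCGG was the reverse, with 12.3% of CpG-poor windows against 68.0% of CpG-rich windows and 47.5% of all promoter windows, as its letters hold a CpG. The letters CCAAT were found in 23.7% of CpG-poor and 28.7% of CpG-rich windows, and 27.5% of all promoter windows held them. A TATA box, searched as TATAAA or TATATA at 40 to 16 bases before a RefSeq start site, was present at 43 of 1103 CpG-poor peaks with such a site in reach (3.90%), at 26 of 1822 intermediate peaks (1.43%) and at 77 of 6663 CpG-rich peaks (1.16%). A match describes these letters and is not a bound site.

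Depth set how well a change could be seen. The libraries held 57.4 to 74.7 M tags (M for mega), 17.5 to 21.1 M of them in peaks, and the median CpG-poor peak held 45.5 to 62.0 tags per library against 231.5 to 283 at the median promoter peak. The median standard error of the log2 fold change was 0.27 at CpG-poor peaks and 0.10 at CpG-rich peaks, so a change of a given size was easier to detect at a CpG-rich promoter. Of the blast markers, Cd34, Itga4, Kit and Myb had a promoter peak and Mpo and Ptprc did not, and the summed tags of the 4 ranged from 2559 to 2568 in oil and from 2616 to 3036 after tamoxifen, with no overlap. This sum includes the called peak of Cd34, with 73.9, 92.6 and 117 tags in oil and 265, 332 and 212 after tamoxifen. Kit overlapped between the groups, so the sum does not show a rise at each of the 4 markers. In a sorted bulk sample, fewer cells with an open promoter and less opening in each cell cannot be told apart. Markers of other cells were sparse for lymphoid types, with promoter peaks at 3 of 12 T-cell markers, 1 of 9 B-cell markers and 0 of 7 NK-cell markers. Summed promoter tags of the 6 macrophage and dendritic-cell markers with a peak were 591 to 659 in oil and 703 to 882 after tamoxifen, those of the 8 erythroid markers 2338 to 2453 and 2198 to 2299, those of the 6 mast-cell markers 952 to 1020 and 1048 to 1118, and those of the 6 megakaryocyte markers 1196 to 1304 and 1308 to 1369. The sums of these 4 other cell types did not overlap between the groups, and their part in the results below was not tested. The T-cell sums, at 197 to 241 in oil and 173 to 186 after tamoxifen, did not overlap either, while the B-cell sums (159 to 185 and 110 to 185) and the single neutrophil marker Mmp9 (60.7 to 77.0 and 60.2 to 98.6) did. The promoter peaks of Usp18 do not check its deletion. The one 7 bp from its start had 459, 415 and 440 tags in oil and 441, 468 and 438 after tamoxifen, and the CpG-poor one at -686 bp had 55.2, 85.8 and 53.8 against 51.2, 47.9 and 73.6, with overlap in both.

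The share of tags at promoters did not separate the groups. Promoters held 34.5%, 34.2% and 32.9% of the tags in peaks in the oil libraries and 33.8%, 34.3% and 32.9% in the tamoxifen libraries, or 33.9% ± 0.809 against 33.7% ± 0.694 (SD, n = 3 each, two-sided exact permutation test, p = 0.7). CpG-poor promoters held 2.20%, 2.21% and 2.26% in oil and 2.18%, 2.15% and 2.22% after tamoxifen (exact permutation p = 0.3), and the groups overlapped. CpG-rich promoters held 24.7% to 26.1% in oil and 24.8% to 26.2% after tamoxifen (exact permutation p = 1). Intermediate promoters held 6.12%, 6.10% and 6.002% in oil and 5.95%, 5.96% and 5.93% after tamoxifen, and these did not overlap. That difference reached p = 0.1 in the exact permutation test, the smallest that 3 against 3 libraries can give, and 0.3 after Benjamini-Hochberg adjustment over the 21 values per library that were compared in this way.

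Peak by peak, few promoters changed, and those that did mostly gained tags. At a fold change over 2 and a DESeq2 adjusted p under 0.05, 60 promoter peaks rose and 4 fell after tamoxifen, or 0.315% of the members. Over all 175929 peaks the same rule called 0.654%, of which 0.588% rose and 0.0659% fell. The CpG-poor class contributed 32 of the 60 that rose and 3 of the 4 that fell, or 0.792% of its peaks. The CpG-rich class, the largest of the 3, contributed 17 that rose and 0 that fell, or 0.159%. With the thresholds of these calls, edgeR's quasi-likelihood test gave 20 CpG-rich peaks with more tags and 0 with fewer. At an unadjusted DESeq2 p under 0.05, 402 CpG-rich peaks (3.75%) had more tags and 94 (0.877%) had fewer. Both lay below the shares of all peaks at that p, 6.18% and 2.84%. The share called at distal peaks, 0.808%, was close to that at CpG-poor promoters. The difference between these shares was not tested, and the standard errors above differ between the classes.

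Without the fold limit, 215 promoter peaks rose and 24 fell at a DESeq2 adjusted p under 0.05. The share over all peaks was 1.22% with more tags and 0.167% with fewer. CpG-poor promoters accounted for 67 and 10 of these, or 1.52% and 0.226% of the class. At an unadjusted p under 0.05, 5.91% of CpG-poor peaks had more tags and 4.23% had fewer, beside 6.18% and 2.84% over all peaks. The 3 tamoxifen values lay above the 3 oil values in 10.5% of CpG-poor peaks and below them in 14.7%, beside 11.8% and 9.99% over all peaks. The median log2 change was -0.05 at CpG-poor peaks, -0.02 at intermediate peaks, 0.01 at CpG-rich peaks and 0.01 at distal peaks, and 42.4% of CpG-poor peaks had a value above 0. CpG-poor promoters thus held more peaks that leaned toward fewer tags than the table as a whole, while nearly all that passed the fold limit went the other way. Set against CpG-rich promoters library by library, the median CpG-poor level minus the median CpG-rich level on the log2 scale was -3.13, -3.12 and -2.95 in oil and -3.12, -3.19 and -3.04 after tamoxifen, and this gap did not separate the groups (exact permutation p = 0.7).

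The count of called peaks changed with the library left out. Leaving out any library but tamoxifen replicate 4 left 449 to 1177 CpG-poor peaks without an adjusted p. Such peaks counted as not called, so a lost call may be a missing adjusted p. When oil replicate 1, 2 or 4 was left out, 19, 13 or 24 CpG-poor peaks were called, and when tamoxifen replicate 1, 3 or 4 was left out, 19, 12 or 68. Over all promoters these counts were 32, 30 and 43 for the oil libraries and 34, 25 and 125 for the tamoxifen libraries. Tamoxifen replicate 4 was the lowest tamoxifen library in 27 of the 32 CpG-poor peaks that rose, and tamoxifen replicate 3 was the highest in 21. In 16 of the 64 called promoter peaks the call held whichever library was left out, with 14 that rose and 2 that fell, at Cyp11a1 (both peaks), Cd34, Lrrc58, Hopx, Thbd, Glrx, Myo1f, Kcnq5, Cpq, Nek6, Ano3, Gm14005, Gm16130, Snord52 and 1110038B12Rik.

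**Figure D2:**
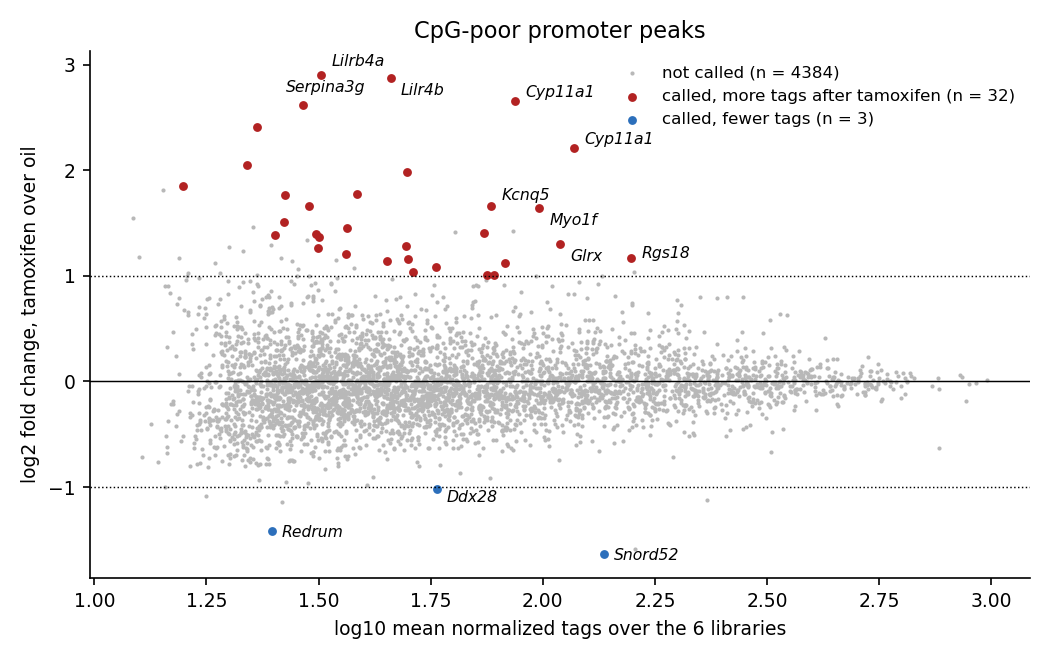
Each point is 1 of the 4419 CpG-poor promoter peaks, by log10 of its mean normalized tags over the 6 libraries (x axis) and its DESeq2 log2 fold change, tamoxifen over oil (y axis). Dotted lines mark a 2-fold change. The 32 called peaks with more tags lie mostly at low mean tags, and Snord52, Ddx28 and Redrum are the 3 called with fewer.

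The smallest adjusted p among all members belonged to the 2 promoter peaks of Cyp11a1, the enzyme that cuts the side chain of cholesterol in the first step of steroid hormone synthesis. The peak at -424 bp from its start held 48.5, 39.0 and 37.6 normalized tags in the oil libraries and 192, 254 and 132 in the tamoxifen libraries. The peak at -55 bp held 14.3, 29.3 and 26.9 against 128, 211 and 112. In both, every tamoxifen library lay above every oil library, and tamoxifen replicate 3 was the highest. The means were 41.7 ± 5.94 and 193 ± 60.9 for the first (SD, n = 3 each) and 23.5 ± 8.01 and 150 ± 53.1 for the second. On the log2 scale the peaks rose by 2.21 ± 0.24 and 2.65 ± 0.29 (SE), with DESeq2 adjusted p-values of 4.33e-16 and 6.21e-16. The sequences printed above show how few CpG pairs each holds. Peaks outside the promoter were called as well, with 5 of the 17 peaks of any kind nearest to Cyp11a1 and 6 of the 23 nearest to the predicted gene Gm16130, whose closest promoter peak lies 16237 bp from the Cyp11a1 start. All 3 promoter peaks of Gm16130 were CpG-poor and were called, and the one at -70 bp went from 27.6, 54.6 and 39.4 tags to 118, 103 and 102.

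The other CpG-poor promoters that rose lay at genes of varied function. Myo1f, a myosin of leukocytes, went from 44.1, 36.1 and 61.8 tags in oil to 130, 202 and 115 after tamoxifen, a log2 change of 1.64 ± 0.25 (DESeq2 adjusted p = 9.04e-08). Rgs18, a regulator of G-protein signaling in blood cells, went from 105, 99.5 and 86.0 tags to 208, 273 and 172, a log2 change of 1.17 ± 0.18 (DESeq2 adjusted p = 3.75e-07). The groups did not overlap at either peak, but Rgs18 was no longer called when tamoxifen replicate 3 was left out. Kcnq5, a potassium channel gene, held 39.7, 29.3 and 41.2 tags in oil and 139, 120 and 89.4 after tamoxifen, and rose by 1.66 ± 0.25 on the log2 scale (DESeq2 adjusted p = 7.76e-08). Glrx, the redox enzyme glutaredoxin, held 68.4, 50.7 and 69.9 tags and then 171, 147 and 147, and rose by 1.30 ± 0.20 (DESeq2 adjusted p = 9.83e-08). Both were called whichever library was left out, as was Cpq, a carboxypeptidase, with 18.8, 12.7 and 20.6 tags in oil and 58.0, 64.6 and 55.9 after tamoxifen. Further called peaks lay at the kinase Syk, the Polycomb subunit Phc2, the exchange factors Dock10 (2 peaks) and Arhgef3, the cytokine genes Il16 and Tnfsf14, the adhesion gene Ceacam2 and Eya2. Each of these lost its call without at least 2 of the 6 libraries in turn, and their log2 changes ran from 1.01 to 2.05.

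Several of the called peaks started from very low levels. Lilrb4a, an inhibitory receptor of myeloid cells, held 6.62, 6.83 and 8.96 tags in oil and 40.6, 100 and 28.9 after tamoxifen, the largest log2 change of the called CpG-poor peaks at 2.90 ± 0.49 (DESeq2 adjusted p = 3.08e-06). Lilr4b, a near-identical paralog whose promoter peak lies 10074 bp away, held 8.82, 7.80 and 16.1 tags in oil and 61.9, 138 and 41.9 after tamoxifen (DESeq2 adjusted p = 0.0017). Tamoxifen replicate 3 was by far the highest library in both, and edgeR gave adjusted p-values of 0.0724 and 0.0863, so it called neither. Reads of the paralogs may be shared between these peaks, so they are not counted as separate evidence here. Serpina3g, a protease inhibitor, held 6.62, 8.78 and 8.96 tags in oil and 65.7, 64.6 and 20.5 after tamoxifen, and Ctla2a, a cysteine protease inhibitor, held 9.93, 6.83 and 5.38 tags and then 42.5, 53.5 and 20.5. In both the tamoxifen replicate 4 value was the lowest of its group and still above every oil value.

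**Figure D3:**
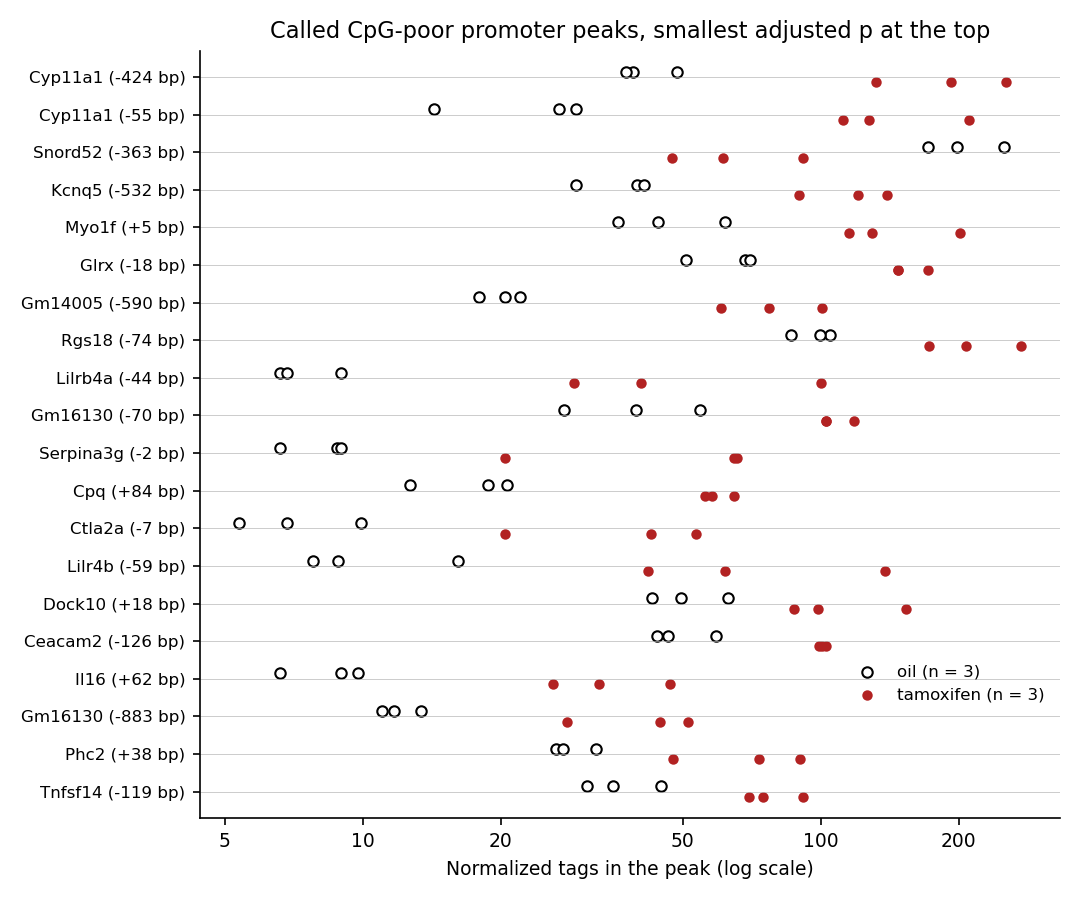
Normalized tags (x axis, log scale) in each oil library (open circles, n = 3) and each tamoxifen library (filled circles, n = 3). Shown are the 20 CpG-poor promoter peaks with the smallest DESeq2 adjusted p among those called with the fold limit. They are named by nearest gene and distance to its start. The groups do not overlap in any of them, and at Snord52 alone the tamoxifen values are the lower ones.

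As a group, the 32 CpG-poor peaks that rose had log2 changes of 1.01 to 2.90 with a median of 1.43. Over all 35 called peaks, the 3 that fell included, the median was 23.5 tags in oil and 61.8 after tamoxifen. The 35 called peaks lay at 31 genes and 29 loci at least 50000 bp apart. Of the 32 that rose, 20 had their center within 100 bp of the start site. Of these 32, 17 appeared in the tamoxifen peak list alone and 15 in both lists, and the 3 that fell appeared in the oil list alone, but these lists came from the same libraries and so do not add to the test. The Runx letters TGTGGT occurred in 12 of the 32 windows (37.5%) and the PU.1 letters GAGGAA in 12 (37.5%), against 17.8% and 24.02% of all CpG-poor windows. The GATA letters AGATAA occurred in 7 of the 32 (21.9%), against 13.3% of all CpG-poor windows. Among CpG-poor peaks centered within 100 bp of a start, 17.3% of windows held TGTGGT and 30.1% held GAGGAA. Over the larger set of 261 CpG-poor peaks with more tags at an unadjusted p under 0.05, the shares were 26.1% for TGTGGT, 37.9% for GAGGAA and 10.7% for the GATA letters AGATAA. Over the 187 with fewer tags they were 11.8%, 24.1% and 22.5%, so the order of the GATA and Runx letters was reversed between the directions. These shares are descriptions and were not tested. No TATA box was found at the 20 called CpG-poor peaks with a RefSeq start in reach (0 of 20).

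Few promoter peaks were called with fewer tags, and those with the smallest adjusted p lay at 1 locus. Snord52 is a small nucleolar RNA gene, and the CpG-poor peak at -363 bp from it (chr17:34951230-34951513) held 199, 172 and 251 tags in oil and 47.4, 61.3 and 91.3 after tamoxifen. It fell by 1.63 ± 0.21 on the log2 scale (DESeq2 adjusted p = 1.03e-10). The neighboring peak, 77 bp away (chr17:34951590-34951902) and annotated to 1110038B12Rik, held 296, 279 and 349 tags in oil and 107, 111 and 167 after tamoxifen, and fell by 1.26 ± 0.17 (DESeq2 adjusted p = 1.03e-10). It was placed in the intermediate class by a CpG-richer window beside it. The groups did not overlap in either, and both calls held whichever library was left out. The next promoter peaks along the chromosome, 7236 bp on, belonged to the stress-induced chaperone gene Hspa1b. Its peak at -440 bp held 397, 392 and 427 tags in oil and 277, 263 and 318 after tamoxifen, and its start peak 474, 458 and 502 against 342, 361 and 372. The start peak of Hspa1a held 280, 255 and 310 tags against 189, 193 and 214. These peaks fell by 0.50 ± 0.11, 0.42 ± 0.10 and 0.50 ± 0.13 on the log2 scale, each past a DESeq2 adjusted p of 0.05 but not the fold limit, and another Hspa1b peak fell by 0.52 ± 0.14. The sequences of Hspa1a and Hspa1b are almost the same, and the reads at their starts may be shared. Away from this locus, Ddx28, a mitochondrial RNA helicase gene, went from 76.1, 83.9 and 73.5 tags to 40.6, 29.0 and 44.7 (log2 change -1.02 ± 0.26, DESeq2 adjusted p = 0.0113), and Redrum, a non-coding RNA gene, from 38.6, 23.4 and 46.6 to 12.6, 11.1 and 16.8 (log2 change -1.42 ± 0.42, DESeq2 adjusted p = 0.0489). Each of these last calls was lost without any 1 of 5 libraries, all but tamoxifen replicate 4. At Redrum there was no adjusted p without any 1 of the oil libraries.

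Some promoter peaks outside the CpG-poor class that rose are given for scale. Cd34, a surface protein of blood stem and progenitor cells, had an intermediate peak 97 bp from its start with 73.9, 92.6 and 117 tags in oil and 265, 332 and 212 after tamoxifen, and it rose by 1.50 ± 0.19 on the log2 scale (DESeq2 adjusted p = 8.32e-12). Lrrc58, a gene for a leucine-rich repeat protein, had 152, 165 and 138 tags and then 365, 362 and 289, and rose by 1.16 ± 0.14 (DESeq2 adjusted p = 2.09e-12). Every tamoxifen library exceeded every oil library at both. Celsr1, a cadherin of planar cell polarity, and Hopx, a homeodomain protein gene, were CpG-rich and rose by 1.01 ± 0.13 and 1.48 ± 0.23.

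CpG-poor peaks were next divided by their position in the promoter, and those at the start site held most of the gains. Of the 1188 CpG-poor peaks centered within 100 bp of a start site, 20 rose and 0 fell at the fold limit by DESeq2 (1.68%), and edgeR called 27 and 0. Of the 3231 centered farther away, 12 rose and 3 fell (0.464%). At an unadjusted p under 0.05, 11.5% of the near peaks had more tags and 3.28% had fewer, while 3.84% of the far peaks had more and 4.58% had fewer. The median log2 change was 0.03 near the start and -0.09 away from it. By distance, it was -0.11 from -1000 to -750 bp (n = 1164), -0.10 from -750 to -500 bp (n = 963), -0.05 from -500 to -250 bp (n = 584), 0.03 from -250 to -100 bp (n = 363) and 0.03 within 100 bp. Intermediate promoters ran from -0.09 in the farthest bin to 0.00 at the start, and CpG-rich ones from -0.02 to 0.01. Distance was also tied to level, with a median CpG-poor oil level of 150 tags per 1000 bp in the farthest bin and 268 at the start, and the part of level in the pattern was not tested.

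The same split was compared library by library, since peaks are not replicates. The median log2 normalized tags of CpG-poor peaks within 100 bp were 6.21, 6.20 and 6.29 in oil and 6.33, 6.32 and 6.34 after tamoxifen. Those of the peaks farther away were 5.63, 5.64 and 5.68 in oil and 5.57, 5.54 and 5.60 after tamoxifen. The near peaks were thus higher in every tamoxifen library than in any oil library, and the far peaks lower. The far-minus-near difference was -0.58, -0.57 and -0.61 in oil and -0.76, -0.78 and -0.74 after tamoxifen, or -0.58 ± 0.02 against -0.76 ± 0.02 (SD, n = 3 each). It differed by -0.18 between the groups with an exact permutation p of 0.1, the smallest possible here, and 0.3 after Benjamini-Hochberg adjustment over the 21 values compared, so it does not pass 0.05. It lay between -0.19 and -0.17 under every alternative run.

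CpG-poor peaks were also divided by what else their gene held. At 1100 genes a CpG-poor promoter peak accompanied a CpG-rich one, and the 1292 CpG-poor peaks of these genes had a median log2 change of -0.12, with 30.7% above 0. The 3127 CpG-poor peaks at the other 2395 genes had a median of -0.01, with 47.3% above 0. In the first set 5 peaks rose and 1 fell, and in the second 27 rose and 2 fell. The tamoxifen values lay wholly below the oil values in 19.3% of the first set and in 12.8% of the second, beside 9.99% of all peaks. They lay wholly above in 4.72% and 12.9%, beside 11.8% of all peaks. Within the same genes, the CpG-poor peaks had the lower log2 change at 824 of 1100 (74.9%), and the median difference from the CpG-rich peaks was -0.15. The gap was present within subsets too. Among peaks over 100 bp from the start, the medians were -0.14 beside a CpG-rich peak (n = 1139) and -0.05 elsewhere (n = 2092). Among peaks found in both peak lists they were -0.09 and -0.00.

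By library, the median log2 normalized tags of CpG-poor peaks beside a CpG-rich one were 5.75, 5.80 and 5.83 in oil and 5.68, 5.58 and 5.73 after tamoxifen, with no overlap. Those of CpG-poor peaks at the other genes were 5.75, 5.75 and 5.80 in oil and 5.78, 5.71 and 5.78 after tamoxifen, with overlap. The difference between both kinds was 0.00, 0.05 and 0.03 in oil and -0.10, -0.13 and -0.05 after tamoxifen. It changed by -0.12 with an exact permutation p of 0.1 and an adjusted value of 0.3, so it also does not pass 0.05. The CpG-rich peaks of the same 1100 genes showed no such separation, at 8.82, 8.81 and 8.73 in oil and 8.79, 8.83 and 8.75 after tamoxifen. Of those 1302 CpG-rich peaks, DESeq2 called 0 in either direction at the fold limit, and edgeR called 0. At an unadjusted p under 0.05 DESeq2 gave 45 with more tags (3.46%) and 17 with fewer (1.31%), beside 6.18% and 2.84% of all peaks.

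**Figure D4:**
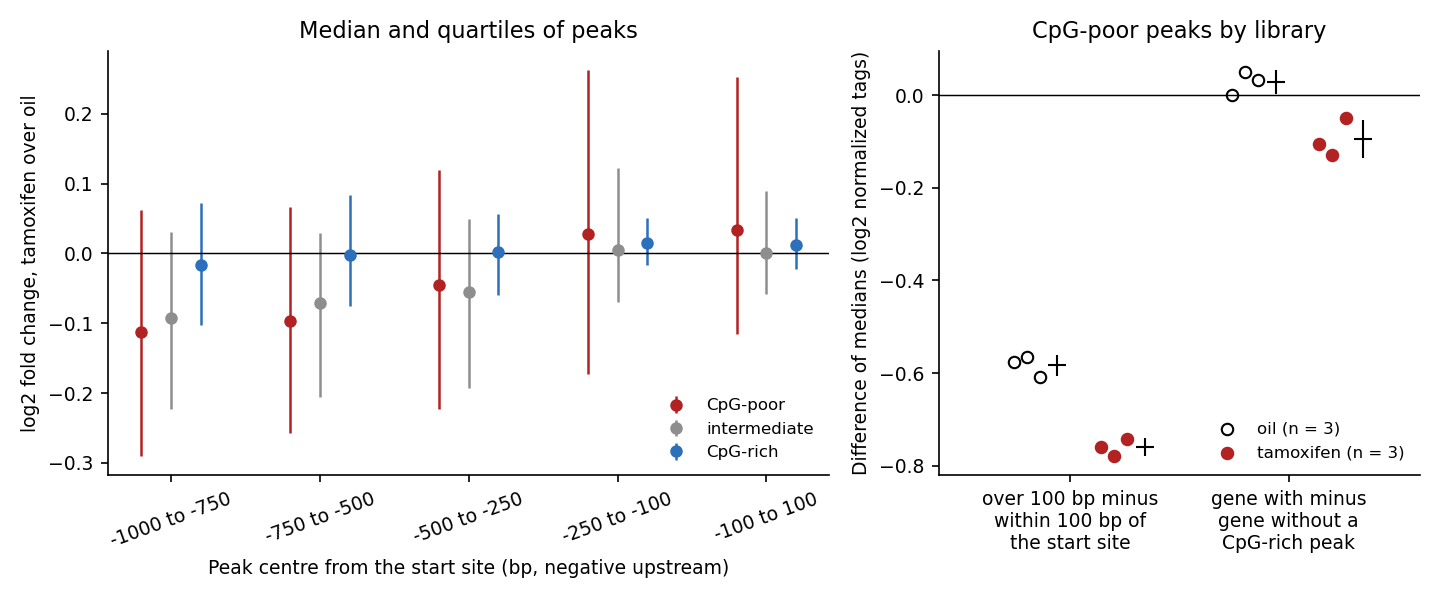
Left, median (points) and quartiles (bars) over peaks of the DESeq2 log2 fold change, tamoxifen over oil (y axis), by distance of the peak center from the start site in bp (x axis) and CpG class. Right, difference of the median log2 normalized tags between kinds of CpG-poor peak (y axis) in each library, with mean ± SD beside the points (n = 3 each). The tamoxifen libraries lie at -0.78 to -0.74 for far minus near peaks and the oil libraries at -0.61 to -0.57.

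Genes of 18 lists were then looked up among the promoter peaks, and each list is described by its counts and median beside those of all peaks, whose median log2 change was -0.00. Surface receptors of myeloid cells had 67 promoter peaks, 53 of them CpG-poor. At the fold limit 3 rose and 0 fell, namely Cd34, Lilrb4a and Lilr4b, and edgeR called 1 and 0. Without it, DESeq2 gave 4 and 0 and edgeR gave 7 and 0. At an unadjusted p under 0.05, 17 had more tags and 1 had fewer, or 25.4% and 1.49% beside 6.18% and 2.84% of all peaks, and the list's median was 0.26. The groups did not overlap upward in 38.8% of its peaks and downward in 8.96%, beside 11.8% and 9.99% of all peaks. Cx3cr1, a chemokine receptor of monocytes, passed a DESeq2 adjusted p of 0.05 without reaching the fold limit, with 79.4, 76.1 and 63.6 tags in oil and 116, 147 and 145 after tamoxifen (DESeq2 adjusted p = 0.00129). Fcgr3, an Fc receptor, had 77.2, 67.3 and 75.3 tags against 123, 125 and 98.7 at its start and Itgam, the integrin CD11b, had 29.8, 31.2 and 30.5 against 34.8, 60.2 and 27.9. Neither passed in DESeq2, with adjusted p of 0.0743 and 0.851, while edgeR gave adjusted p of 0.0228 for Fcgr3 and 0.446 for Itgam. Kit, the receptor used in the sort, had 761, 764 and 747 tags against 767, 856 and 738, and Il1rl1, the interleukin-33 receptor, had 600, 568 and 518 against 557, 575 and 542, with overlap in both.

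Myeloid granule proteins had 23 promoter peaks, 16 of them CpG-poor, with a median log2 change of 0.21. DESeq2 called 0 in either direction with or without the fold limit. By edgeR 1 had more tags and 0 had fewer at the fold limit, and 4 and 0 without it. At an unadjusted DESeq2 p under 0.05, 7 had more tags and 0 had fewer, or 30.4% and 0%, beside 6.18% and 2.84% of all peaks. The summed tags of these peaks were 2066, 2038 and 2155 in oil and 2472, 2920 and 2388 after tamoxifen, with no overlap. Ctsc, the protease that activates granule serine proteases, held 459, 462 and 429 tags in oil and 557, 606 and 497 after tamoxifen. The CpG-poor starts of Elane and Prtn3, the neutrophil serine proteases, were low in every library, at 18.6 to 28.7 and 17.6 to 31.4 tags.

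Mast-cell and basophil genes had 40 promoter peaks, 28 of them CpG-poor, and a median of 0.12. The 2 that rose were the Cyp11a1 peaks, 0 fell, edgeR called 3 and 0, and 5 had more tags and 0 fewer at an unadjusted DESeq2 p under 0.05. These shares were 12.5% and 0%, beside 6.18% and 2.84% of all peaks. The groups did not overlap upward in 12 of these 40 peaks (30.0%) and downward in 1, where all peaks had 11.8% and 9.99%. Cpa3, a mast-cell protease, held 44.1, 34.1 and 39.4 tags in oil and 44.5, 53.5 and 51.2 after tamoxifen, and its groups did not overlap, but it did not pass the test, with a log2 change of 0.34 ± 0.28 (DESeq2 adjusted p = 0.85). Hdc, the histamine-forming enzyme, held 315, 287 and 276 tags at its start in oil and 332, 348 and 281 after tamoxifen, Il4 held 435, 404 and 391 against 448, 494 and 406, and Ms4a2, a chain of the IgE receptor, held 70.6, 70.2 and 64.5 against 50.3, 69.1 and 57.7. Megakaryocyte genes had 19 promoter peaks with a median of 0.10, of which 2 rose without the fold limit, at Itga2b and Plek. Neither passed in edgeR, with adjusted p of 0.0756 and 0.0792. The DESeq2 calls at the fold limit were 0 in either direction, as were those of edgeR, and 3 had more tags and 0 fewer at an unadjusted p under 0.05. Of the megakaryocyte peaks these were 15.8% and 0%, beside 6.18% and 2.84% of all peaks.

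Erythroid genes leaned the other way. Of their 87 promoter peaks, 49 were CpG-poor, the median was -0.05, and 1 had more tags and 8 had fewer at an unadjusted DESeq2 p under 0.05. These were 1.15% and 9.20% of the list, beside 6.18% and 2.84% of all peaks. DESeq2 called 0 at the fold limit, as did edgeR. Without it, DESeq2 gave 0 in either direction and edgeR gave 0 with more tags and 1 with fewer. The groups did not overlap downward in 16.1% of these peaks and upward in 2.30%, where all peaks had 9.99% and 11.8%. Klf1, an erythroid transcription factor with a CpG-poor start, held 342, 314 and 323 tags in oil and 286, 247 and 313 after tamoxifen, and Gata1 held 435, 427 and 444 against 369, 386 and 449. Klf1 did not overlap between the groups and Gata1 did, but neither passed the test, with log2 changes of -0.21 ± 0.12 and -0.12 ± 0.11.

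Interferon-stimulated genes, the class that Usp18 restrains through the type I interferon receptor, had 147 promoter peaks, 91 of them CpG-poor, and a median of -0.00. DESeq2 called 0 at the fold limit and edgeR called 1 with more tags. At an unadjusted DESeq2 p under 0.05, 7 had more tags and 2 had fewer, or 4.76% and 1.36%, beside 6.18% and 2.84% of all peaks. Plscr2 alone passed a DESeq2 adjusted p of 0.05, with 172, 138 and 193 tags in oil and 250, 267 and 215 after tamoxifen (DESeq2 adjusted p = 0.0366). Without the fold limit, edgeR gave 4 peaks of this list with more tags and 0 with fewer. The CpG-poor start of Isg15, the ubiquitin-like protein that Usp18 removes from its targets, held 110, 135 and 125 tags in oil and 141, 123 and 155 after tamoxifen, and the groups overlapped. Mx2, an antiviral GTPase, held 61.8, 80.9 and 65.4 tags against 111, 115 and 98.7 at its start and did not overlap. Its DESeq2 adjusted p was 0.108 and its edgeR adjusted p was 0.0306. Uba7, the activating enzyme of Isg15, and Oasl2 overlapped between the groups at their CpG-poor starts, with 437 to 468 tags against 436 to 498 and 163 to 176 against 160 to 177.

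The remaining lists held few calls at the fold limit. T-cell and NK-cell genes had 33 promoter peaks, of which 1 rose at the fold limit, at Ubash3a, a regulator of T-cell receptor signaling (37.5, 35.1 and 28.7 tags against 80.2, 75.8 and 51.2), and Cd7 and Lef1 rose without it. The list's median was -0.03, while 9 of its peaks had more tags and 0 had fewer at an unadjusted DESeq2 p under 0.05. These were 27.3% of the list, where 6.18% of all peaks had more tags at that p. The groups did not overlap upward in 33.3% of the T-cell and NK-cell peaks and downward in 6.06%, beside 11.8% and 9.99% of all peaks. Stem and progenitor genes had 71 peaks with a median of 0.05, of which 1 rose at the fold limit, at Cd34, and Gfi1 and Runx3 rose without it. Without the fold limit, 1.22% of all peaks rose and 0.167% fell by DESeq2. Of the stem and progenitor peaks, 11.3% had more tags and 2.82% had fewer at an unadjusted DESeq2 p under 0.05, beside 6.18% and 2.84% of all peaks. The CpG-poor peak at -208 bp from a Runx3 start held 213, 198 and 200 tags in oil and 377, 398 and 291 after tamoxifen, a log2 change of 0.80 ± 0.14 (DESeq2 adjusted p = 3.41e-06). Runx3 encodes a relative of Runx1 that binds the same letters. NF-kB and inflammatory genes had 69 peaks with a median of 0.04, and Plaur, Plek and Cd86 rose without the fold limit, Plek in DESeq2 but not in edgeR. At an unadjusted DESeq2 p under 0.05, 11.6% of this list had more tags and 1.45% had fewer. Plaur, the urokinase receptor, held 234, 314 and 279 tags in oil and 433, 406 and 440 after tamoxifen at its CpG-poor start. Targets of p53 had 67 peaks with a median of 0.02, of which 10.4% had more tags and 4.48% had fewer at an unadjusted DESeq2 p under 0.05. Eda2r, Dglucy and Perp rose without the fold limit. Of these Eda2r, a member of the TNF receptor family, held 80.5, 85.8 and 109 tags against 194, 163 and 166. Cdkn1a, the cell cycle inhibitor p21, held 523, 530 and 511 against 543, 570 and 572 at its CpG-rich start. Its CpG-poor peak at -51 bp from another start held 13.2, 15.6 and 8.96 against 21.3, 25.6 and 29.8. The groups did not overlap at either Cdkn1a peak, but neither passed the test (DESeq2 adjusted p = 0.855 and 0.38).

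Heat shock genes had 49 promoter peaks, 1 of them CpG-poor, with a median of 0.00, and the 4 that fell without the fold limit were those of Hspa1a and Hspa1b. The 1 that rose was Fkbp5, a glucocorticoid-induced co-chaperone that also made up the single rise among the 35 peaks of glucocorticoid-responsive genes (median 0.02). At an unadjusted DESeq2 p under 0.05, 6.18% of all peaks had more tags and 2.84% had fewer. Heat shock genes had 2.04% with more tags and 10.2% with fewer at that p, and glucocorticoid-responsive genes had 2.86% and 2.86%. Macrophage and dendritic-cell genes (36 peaks, median 0.01) had 5 with more tags (13.9%) and 2 with fewer (5.56%) at that p. Immediate early genes (78 peaks, median 0.02) had 9 (11.5%) and 0, and B-cell genes (22 peaks, median 0.04) had 0 and 0. Olfactory and vomeronasal receptor genes (8 peaks, median 0.38) had 3 (37.5%) and 0, and keratin genes (13 peaks, median 0.21) had 2 (15.4%) and 0. In the last 5 of these lists DESeq2 called 0 with or without the fold limit, and edgeR called 1 keratin peak with more tags at the fold limit and 0 in the other 4. Without the fold limit, edgeR gave 1 with more tags in each of the macrophage and dendritic-cell, immediate early and keratin lists. MicroRNA genes had 326 promoter peaks, 192 of them CpG-poor, with a median of 0.01. Of these peaks, 5.52% had more tags and 3.07% had fewer at an unadjusted DESeq2 p under 0.05. Without the fold limit 3 of the 326 rose and 1 fell, where 1.22% of all peaks rose and 0.167% fell. Those that rose were at Mir8096, Mir149 and Mir8120, and the one that fell was at Mir7225, with 399, 353 and 385 tags in oil and 299.6, 213 and 301 after tamoxifen.

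**Figure D5:**
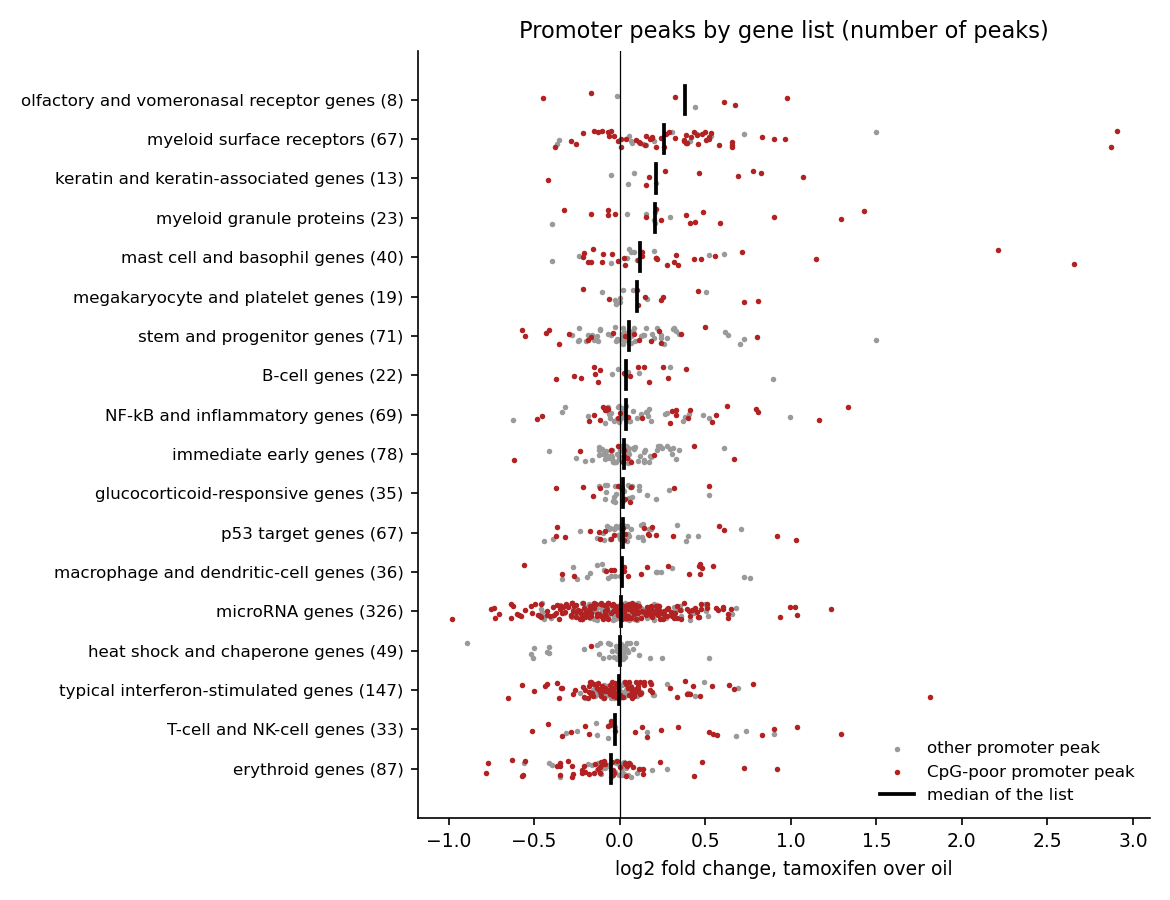
DESeq2 log2 fold change, tamoxifen over oil (x axis), of every promoter peak in the 18 gene lists (y axis, number of peaks in brackets), with CpG-poor peaks in red, other promoter peaks in gray and the median of the list as a bar. Medians run from -0.05 for erythroid genes to 0.38 for the 8 olfactory and vomeronasal receptor peaks.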

How the data were processed

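ATAC-seq libraries of sorted leukemia cells from spleen, 3 oil and 3 tamoxifen, were taken as deposited. The authors mapped reads to mm10 with Bowtie2, called and merged peaks with HOMER and counted tags in each merged peak, at most 3 per position. The deposited values are estimated counts in steps of 0.5, and they were rounded to whole numbers here. Versions are not given in the sources used here. The authors' procedure used DESeq2, with thresholds of a 2-fold change and 0.05 for the adjusted p, and left out peaks within 3000 bp of a start site, so promoters were tested here in a fit of all peaks.

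DESeq2 1.42.0 (R 4.3.3) was run with default size factors on all 175929 peaks, group as the only term, with Benjamini-Hochberg adjustment over the whole table. It was tested on simulated data. Normalized tags are counts divided by the size factors, and medians per library used log2 of normalized tags plus 1. Single values per library were compared with two-sided exact permutation tests over 20 assignments, which cannot go below p = 0.1. edgeR 4.0.16 (quasi-likelihood) was an alternative. Annotated distances were within 2 bp of a RefSeq start of the reference at 90.0% of 15643 promoter peaks, so sequences were read from that mm10 genome. For 1283 promoter peaks, 157 of them CpG-poor, the nearest start site lay outside the window of 1000 bp upstream to 100 bp downstream, and these are in no distance bin.

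The members, the gene lists and the markers were chosen with earlier results of these data known. The split by CpG content, with its subsets by position and neighbor, was made after the annotation was found to remove no promoter, and CpG-rich promoters by sequence took the place of annotated island promoters as the comparison. Named peaks were the 10 called peaks with the smallest adjusted p in each direction whose groups do not overlap, the 5 highest members, the 3 with most tags and every called one in each list, and Usp18. Other names were chosen after their values were seen. Some named peaks of the rule are counted without being described. Alternatives varied the size factors, the correction for GC or intensity, the filter, the test, the class and the libraries. The replicate numbers shared by the groups are 1 and 4. Deviations of same-numbered libraries correlated by -0.043 and 0.051 over all peaks and by -0.020 and 0.119 over promoter peaks, so these numbers were not taken to pair them.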

Additional observations from a re-analysis of the deposited data

How the results depend on the processing

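Under other size factors, GC-dependent or intensity-dependent offsets, a mean of at least 10 tags or autosomes alone, the counts of called promoter and CpG-poor peaks stayed within 1.5 times the reported 64 and 35. Without the fold limit, edgeR gave 451 promoter peaks in place of 239 and 141 CpG-poor peaks in place of 77, and members with a CpG observed/expected ratio under 0.6 in the peak gave 118 promoter peaks, since fewer are counted, and a median log2 change of -0.040. Leaving out 1 library gave 25 to 125 called promoter peaks, 12 to 68 called CpG-poor peaks and, without the fold limit, 78 to 528 and 24 to 172. It moved the median promoter change between -0.028 and 0.027, around the reported 0.0008, and the CpG-poor median between -0.056 and -0.034. The difference in the promoter share of tags ranged from -0.654 to 0.175 percentage points and turned positive without oil replicate 1 (0.103) or tamoxifen replicate 4 (0.175), and the CpG-poor minus CpG-rich difference ranged from -0.088 to 0.0096 and turned positive without oil replicate 4 (0.0096). The cause was not tested.

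A replicate block on the libraries numbered 1 and 4, which uses 4 libraries, called 4 promoter peaks, all CpG-poor, with or without GC-dependent offsets and with or without the fold limit. It left 1689 promoter peaks without an adjusted p, or 1398 with the offsets, and these counted as not called. The promoter median was then -0.018, and -0.023 with the offsets. Of the 64 called promoter peaks, 61 lost their call under this block, 3 to 42 when 1 library was left out and 5 with edgeR, and none of the 122 named peaks changed sign in any of these. Restricting members to genes with no CpG-annotated promoter peak, or to peaks outside annotated repeats, changes nothing by construction, as the annotation names neither at promoters.

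Tags per peak were fewest in the CpG-poor class. The exact permutation tests of values per library cannot pass 0.05 at this number of libraries.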
